A study of Homo sapiens with 14 samples.

Results

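Mitosis and spindle genes are followed here: 49 genes that encode the proteins that start mitosis, build the spindle, attach and separate chromosomes and divide the cell. The rule names them by what they are known to do, not by a measured value, but they were put together with earlier results of these data known. All 49 were found among the 60587 genes of each deposited table, and all 49 passed the filter on low counts that left 17838 genes for testing. The samples were cartilage pellets of the human embryonic stem cell line WA01, also called H1, and the labels name no genetic change and no agent beyond the chondrogenic medium. RNA of whole pellets was sequenced in 4 libraries after 21 days in that medium, in 5 after 30 days and in 5 after 45 days. A single cell line was used, so the values describe that line. The question was how these genes differ between the 3 days.

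A cell enters mitosis when cyclin B activates the kinase CDK1. Condensin then compacts the chromosomes, kinesin motors and microtubule-binding proteins build the spindle, and kinetochores hold each chromosome on it until the checkpoint releases the anaphase-promoting complex (APC/C), which destroys securin and the cyclins. Most of these genes are transcribed mainly in G2 and mitosis, through the factors FOXM1 and B-MYB (gene MYBL2) and the MuvB complex, so that their RNA is known as a mark of dividing cells. In cartilage, early chondrocytes divide, and cells that become hypertrophic leave the cell cycle.

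The depth ran from 18183776 expected counts, in day 30 replicate 2, to 33660704. No member had fewer than 12 expected counts in any library, and the highest count was 8955. The library titled day 45 replicate 1 has 30 days in its treatment label and was used at day 45. Whether replicates were cultured apart is not stated, and the p-values therefore reflect the spread among these libraries, part of which may be technical. Day 30 replicates 3, 4 and 5 stand apart from replicates 1 and 2 of that day by transcript length and GC content. Results that rest on them are given with and without them, and without them day 30 keeps replicates 1 and 2 alone. The 6 cartilage markers were all detected, and their summed levels in CPM, counts relative to the scaled library size, were 34500 to 45700, 88500 to 214000 and 186000 to 300000 on days 21, 30 and 45. The 6 pluripotency markers summed to 13.8 to 17.3, 3.76 to 6.18 and 0.353 to 1.35 CPM. The 5 tendon and fibrous tissue markers summed to 695 to 937, 231 to 290 and 191 to 248 CPM. The 5 endothelial markers summed to 23.9 to 32.3, 6.41 to 15.8 and 8.52 to 11.6 CPM, with CDH5 at 0 in every library. For 5 neural markers the sums were 11.6 to 17.6, 7.33 to 15.3 and 13.9 to 19.1 CPM, with SOX1 at 0, and for 5 skeletal muscle markers 6.43 to 7.48, 9.61 to 15.4 and 10.6 to 21.6 CPM. The 5 epithelial markers summed to 51.6 to 68.5, 46.7 to 58.0 and 47.0 to 72.6 CPM. The 5 blood markers summed to at most 0.314 CPM, with HBG1 at 0. The part of these other cells in the changes of the mitotic genes was not tested.

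The start regions of these genes share short sequence motifs that the choice of members did not use. One is TTTGAA, known as the cell cycle genes homology region (CHR) and bound by the MuvB complex, and the other is CCAAT, bound by NF-Y. RefSeq (GRCh38.p14) gave start regions for 43 of the 49 members. Entries for FOXM1, TTK, AURKA, BIRC5, TPX2 and UBE2C were not used here. The 43 genes have 57 windows of 250 bases before to 50 bases after a start, since some have several starts. Searched on both strands, TTTGAA was found in 33 of the 57 windows (57.9%), against 15.2% of the 35116 windows of all genes in the same table and 10.8% of the 17990 windows of genes tested here. CCAAT was found in 36 of the 57 windows (63.2%), against 34.6% and 34%. Both motifs stood in 1 window in 23 cases (40.4%), against 5.9% and 4.26%. In the stretch from 60 bases before to 20 after the start, chosen after the positions were seen, 40.4% of the members' windows held TTTGAA and 4.05% of all windows did. A match of letters is a description and not a binding site. The 7 regions below run from 130 bases before the start to 20 after it, 5′ to 3′ on the gene's strand. Capitals mark TTTGAA and CCAAT or their reverse complements TTCAAA and ATTGG. They were chosen to show different arrangements of the 2 motifs.
CCNB2, chr15:59105016-59105165, plus strand: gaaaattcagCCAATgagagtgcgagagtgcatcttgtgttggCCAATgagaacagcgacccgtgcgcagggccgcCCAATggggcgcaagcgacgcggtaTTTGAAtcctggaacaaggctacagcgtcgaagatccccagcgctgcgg
CCNB1, chr5:69167020-69167169, plus strand: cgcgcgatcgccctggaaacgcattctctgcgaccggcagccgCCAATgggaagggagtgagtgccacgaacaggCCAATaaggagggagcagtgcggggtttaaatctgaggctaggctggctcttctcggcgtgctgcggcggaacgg
PLK1, chr16:23678759-23678908, plus strand: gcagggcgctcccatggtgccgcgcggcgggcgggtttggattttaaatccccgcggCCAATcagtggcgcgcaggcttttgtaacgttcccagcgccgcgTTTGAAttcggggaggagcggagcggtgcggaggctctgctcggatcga
MKI67, chr10:128126404-128126553, minus strand: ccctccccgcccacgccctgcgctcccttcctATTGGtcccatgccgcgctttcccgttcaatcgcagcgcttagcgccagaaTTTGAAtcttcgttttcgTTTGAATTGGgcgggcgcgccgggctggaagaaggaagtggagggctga
ANLN, chr7:36389732-36389881, plus strand: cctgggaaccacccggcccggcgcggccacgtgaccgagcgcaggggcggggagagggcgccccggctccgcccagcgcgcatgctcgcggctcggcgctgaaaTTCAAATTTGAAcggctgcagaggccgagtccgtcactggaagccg
ECT2, chr3:172750596-172750745, plus strand: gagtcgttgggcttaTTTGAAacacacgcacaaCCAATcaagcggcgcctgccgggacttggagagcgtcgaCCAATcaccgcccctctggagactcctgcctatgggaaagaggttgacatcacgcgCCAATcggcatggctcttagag
CDC25B, chr20:3796180-3796329, plus strand: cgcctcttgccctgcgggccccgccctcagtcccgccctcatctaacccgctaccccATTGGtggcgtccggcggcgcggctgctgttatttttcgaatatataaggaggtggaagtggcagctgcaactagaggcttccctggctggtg

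In the stretch printed, CCNB2 holds CCAAT at 120, 87 and 54 bases before the start, each 33 bases from the next, and TTTGAA at 29 bases. In PLK1 the TTTGAA also lies 29 bases before the start, with CCAAT at 73. MKI67 has TTTGAA at 47 and 29 bases, and the one nearer the start overlaps an ATTGG at 24. ANLN has the motif on both strands side by side, at 26 and 20 bases, and no CCAAT in the stretch printed. ECT2 has TTTGAA farther out, at 115 bases, and CCAAT at 97, 58 and 2 bases. CCNB1 has CCAAT at 87 and 55 bases and no TTTGAA in its window. None of the 4 windows of CDC25B holds TTTGAA, and the one printed has CCAAT at 73 bases. Of the 43 genes, 30 had TTTGAA in at least 1 window (69.8%, against 18.2% of all genes in the table). The 13 without it were CCNA2, CCNB1, CDC25B, MYBL2, BUB1, AURKB, CENPE, CENPI, SPC24, KIF2C, KIF20A, PTTG1 and NCAPH.

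All 49 genes were lower at day 45 than at day 21, and 48 were lower at day 30 than at day 21. Between day 30 and day 45, 23 of them rose and none fell. Levels are CPM after TMM scaling, which are set beside each other only for the same gene, and a change is a fitted log2 fold change, given ± its standard error (SE). A gene was called when its adjusted p in edgeR's quasi-likelihood test was below 0.05. Results given with all libraries are from this fit without an offset for transcript length or GC content, unless another fit is named. Summed over the 49 genes, the 4 libraries of day 21 held 1785, 1824, 2215 and 2319 CPM. Day 30 libraries held 539, 429, 588, 512 and 652 CPM, and day 45 libraries 898, 765, 664, 876 and 674 CPM. The 3 days do not overlap in this sum, and day 30 is the lowest (means 2036 ± 271, 544 ± 83.6 and 775 ± 109 CPM; SD, n = 4, 5 and 5). Days 30 and 45 come close, at 652 and 664 CPM. The highest day 45 sum, 898 CPM, is that of replicate 1, whose treatment label reads 30 days. Placed at day 30, this library would make days 30 and 45 overlap. Fewer dividing cells in a pellet and less of this RNA in each cell cannot be told apart in RNA of whole pellets.

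**Figure D1:**
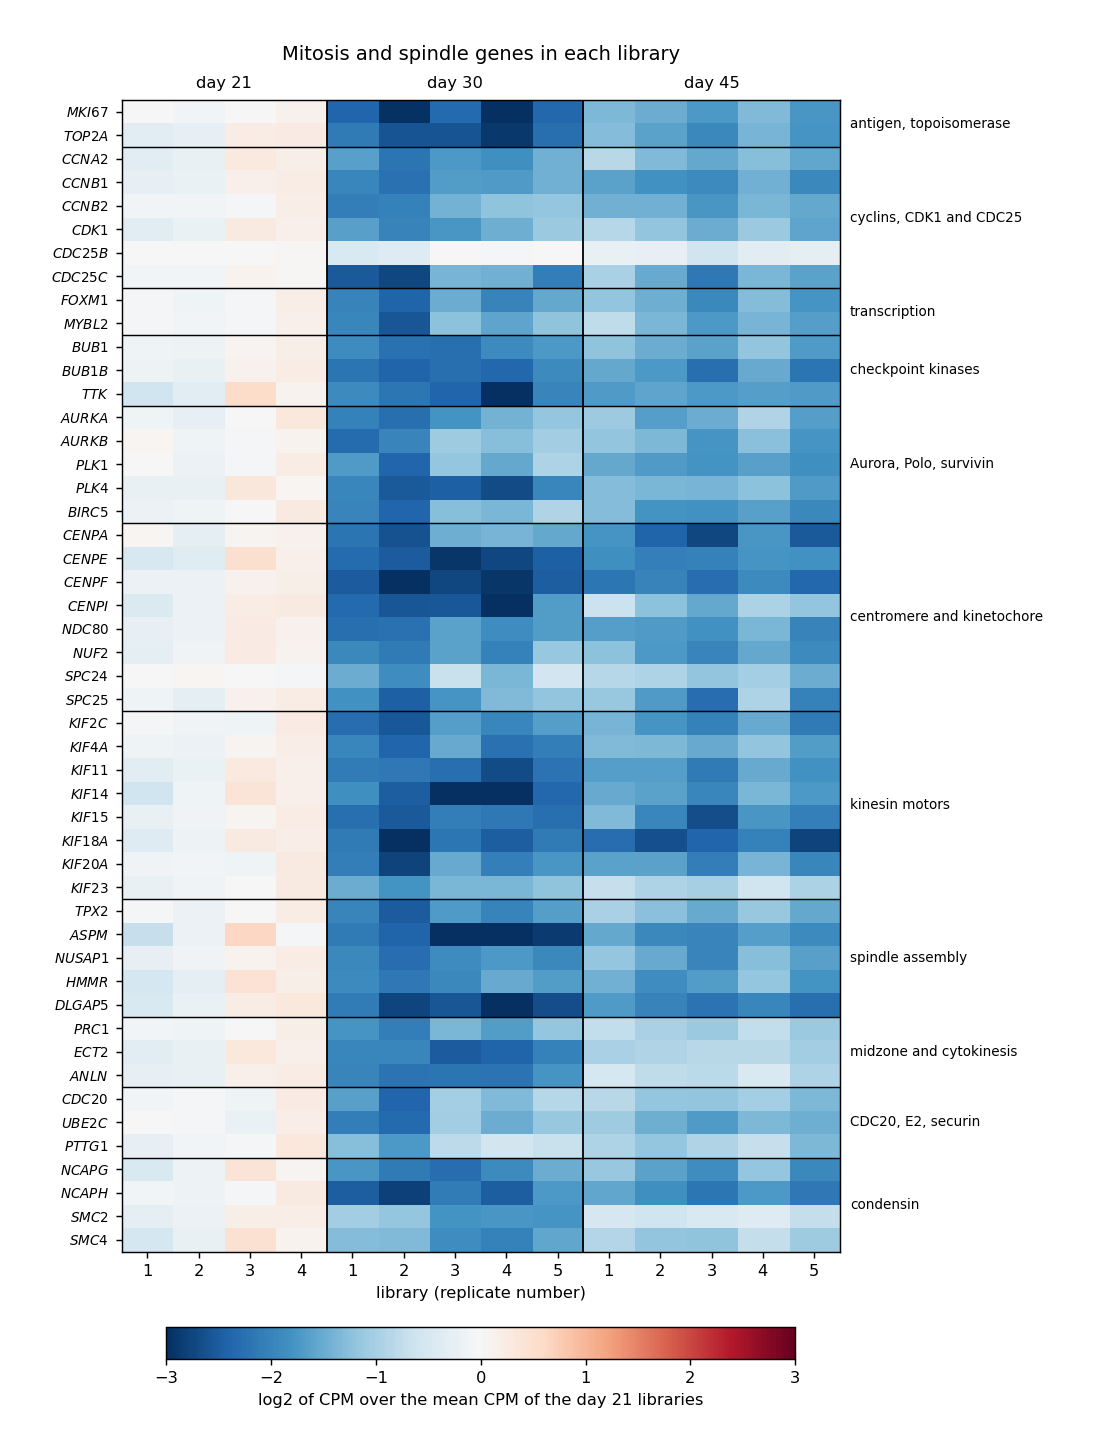
Level of each of the 49 genes (rows, grouped by role) in each of the 14 libraries (columns), as log2 of CPM over the mean of the day 21 libraries. The colour scale ends at -3 and 3, so deeper falls share the darkest blue; the day 30 and day 45 columns are blue for all genes except CDC25B, whose row stays near white.

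From day 21 to day 45, 49 of 49 members fell, where 30.5% of all genes tested fell. The median log2 fold change was -1.5 over the members and -0.05 over all genes. Members ranged from -2.39 for KIF18A to -0.33 for CDC25B, and 41 fell by more than 2-fold. In all 49 every day 45 library lay below every day 21 library, as it did for 26.2% of all genes. The day 45 means were 19% to 79.5% of the day 21 means, with a median of 35.3%. From day 21 to day 30, 48 fell, where 27.1% of all genes did, and 47 of them by more than 2-fold. The median was -1.90, against 0.02 over all genes, and the day 30 means were 15.2% to 89.3% of day 21 with a median of 26.7%. Libraries of these days did not overlap for 48 members and for 22.4% of all genes. The one member not called was CDC25B. Both comparisons use the same day 21 libraries. The TPM scale divides by transcript length and was used without TMM scaling. On log2(TPM + 1) the median over all genes moves to -0.34 and -0.35. There limma called 11.9% of all genes higher and 48.5% lower at day 45, and 9.81% and 50.4% at day 30. The reason for this shift was not tested. Over all alternatives the members' medians were -1.95 to -1.41 and -2.35 to -1.73, below these shifts.

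**Figure D2:**
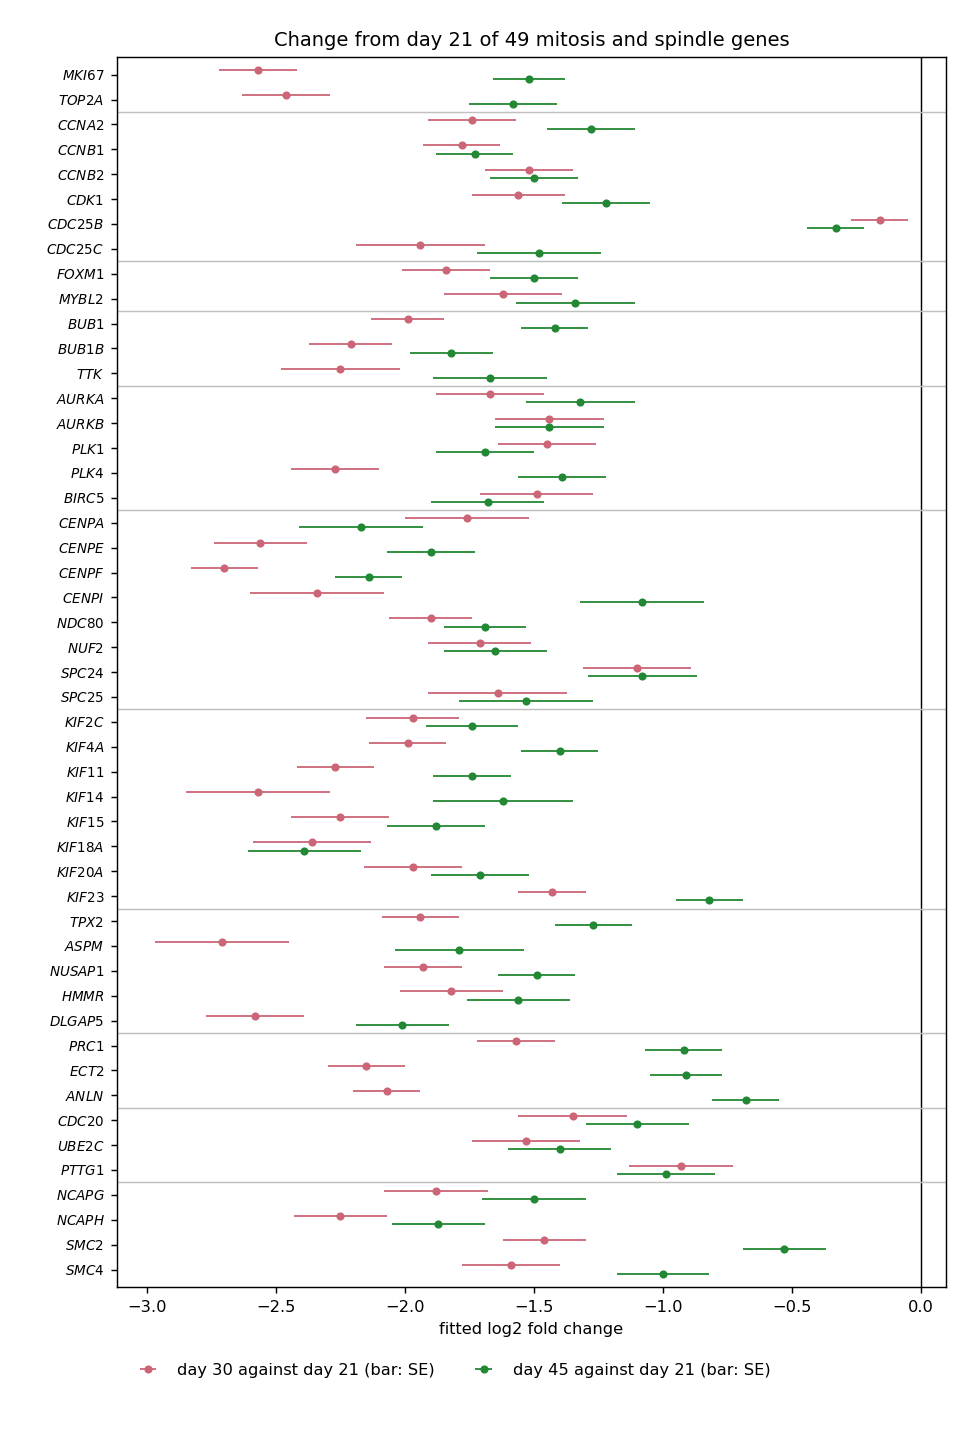
Fitted log2 fold change of each of the 49 genes from day 21 to day 30 and to day 45, with bars of 1 SE; lines separate the role groups. Every point lies left of 0, from -2.71 (ASPM, day 30) to -0.16 (CDC25B, day 30), and for most genes day 45 lies to the right of day 30.

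The proliferation antigen Ki-67 and topoisomerase II alpha fell to day 30 by a group median of -2.51, and both rose after it. MKI67 (ENSG00000148773; GRCh38 chromosome 10, 128096659 to 128126385, minus strand) encodes the protein that coats mitotic chromosomes. It had 192, 183, 193 and 212 CPM in the 4 day 21 libraries, 37.4, 25.1, 39.0, 24.5 and 37.9 CPM in the 5 of day 30 and 76.3, 69.9, 59.0, 77.3 and 58.4 CPM in the 5 of day 45. The 3 days form 3 separate blocks, with day 30 lowest. From day 30 to day 45 MKI67 rose by 1.05 ± 0.14 (SE; adjusted p = 7.28e-06) after a fall of 2.57 ± 0.15 (SE; adjusted p = 9.5e-10). With an offset for transcript length and GC content this rise was 0.58 ± 0.18 (SE, edgeR adjusted p = 0.0137). On log2(TPM + 1) it was 0.59 ± 0.17 (SE, limma adjusted p = 0.00966). Without day 30 replicates 3, 4 and 5 it was 1.11 ± 0.15 (SE, edgeR adjusted p = 7.53e-05). TOP2A, which untangles sister DNA before segregation, had 159, 167, 232 and 235 CPM in the 4 day 21 libraries, 45.8, 32.9, 32.8, 26.7 and 41.6 CPM in the 5 of day 30 and 80.7, 65.0, 52.1, 74.9 and 58.2 CPM in the 5 of day 45. Its days do not overlap either, and within day 21 replicates 3 and 4 lie above replicates 1 and 2. TOP2A fell by 2.46 ± 0.17 (SE; adjusted p = 8.13e-09) and then rose by 0.88 ± 0.16 (SE; adjusted p = 0.000222). With the same offset its rise was 0.47 ± 0.16 (SE, edgeR adjusted p = 0.0198). On log2(TPM + 1) it was 0.58 ± 0.17 (SE, limma adjusted p = 0.0105). Without day 30 replicates 3, 4 and 5 it was 0.73 ± 0.21 (SE, edgeR adjusted p = 0.016). The call of TOP2A ended with day 45 replicate 1 placed at day 30 (0.52, edgeR adjusted p = 0.105).

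Of the 6 cyclin, CDK1 and CDC25 genes, all fell from day 21 to day 45 and 5 fell to day 30. With all libraries only CCNA2 was called higher after it. The genes called higher without day 30 replicates 3, 4 and 5 were CCNB2 (0.54 ± 0.14, SE; edgeR adjusted p = 0.00525), CDK1 (0.58 ± 0.21, 0.0431) and CDC25C (1.12 ± 0.29, 0.00647). CCNB1, the cyclin whose rise drives entry into mitosis, had 41.7, 43.2, 54.3 and 57.8 CPM in the 4 day 21 libraries, 12.7, 10.4, 15.5, 15.1 and 18 CPM in the 5 of day 30 and 16.1, 14, 13.2, 18 and 12.8 CPM in the 5 of day 45. The day 45 libraries lie within the range of day 30, and both days lie below day 21. Its later log2 fold change was 0.04 ± 0.15 (SE; adjusted p = 0.82). CCNB2, the second B-type cyclin, gave 0.02 ± 0.16 (SE; adjusted p = 0.928) for the same interval. CDK1, the kinase that the cyclins activate, had 35.5, 38.5, 52.8 and 49.2 CPM in the 4 day 21 libraries, 14.2, 10.9, 13.2, 15.9 and 20.4 CPM in the 5 of day 30 and 24.4, 19.3, 15.8, 20.4 and 14.8 CPM in the 5 of day 45. Days 30 and 45 overlap between 14.8 and 20.4 CPM, and the change between them was 0.34 ± 0.17 (SE; adjusted p = 0.094). CCNA2, the cyclin of S and G2 phase, rose from a mean of 9.78 CPM at day 30 to 13.5 CPM at day 45 (SD 1.76 and 2.95, n = 5 each), with an edgeR adjusted p of 0.0255. This call ended without day 30 replicate 2 (0.0637), day 30 replicate 4 (0.0528) or day 45 replicate 1 (0.0906), and without the 3 day 30 libraries that stand apart (0.58 ± 0.24, SE; adjusted p = 0.0658). CDC25C, the phosphatase that fires CDK1 at mitotic entry, fell by 1.48 ± 0.24 (SE; adjusted p = 5.45e-05) to day 45.

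CDC25B (ENSG00000101224; chromosome 20, 3786772 to 3806121, plus strand) is the phosphatase that starts CDK1 at the centrosome, and of the 49 genes it changed least. It had 40.9, 40.4, 40.5 and 41.5 CPM in the 4 day 21 libraries, 29.6, 31.2, 41.4, 39.5 and 40.4 CPM in the 5 of day 30 and 35.1, 34.3, 27.0, 32.3 and 33.6 CPM in the 5 of day 45. Day 45 lies below day 21 in every library, while day 30 replicates 3, 4 and 5 lie at the level of day 21 and replicates 1 and 2 lie at the level of day 45. CDC25B was at 79.5% of its day 21 mean on day 45, a log2 fold change of -0.33 ± 0.11 (SE; adjusted p = 0.0156). This call ended with an offset for transcript length (-0.21, adjusted p = 0.136) and for length and GC content (-0.20, adjusted p = 0.0736). To day 30 the change was -0.16 ± 0.11 (SE; adjusted p = 0.218), and without day 30 replicates 3, 4 and 5 it was -0.43 (adjusted p = 0.00479). On log2(TPM + 1) CDC25B was called lower in both comparisons by limma, at -0.74 ± 0.08 to day 45 and -0.63 ± 0.08 to day 30 (SE; adjusted p = 2.55e-06 and 1.53e-05), on a scale whose median over all genes is itself -0.34 and -0.35.

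Both transcription regulators fell early and did not pass the test after day 30 with all libraries. FOXM1, the forkhead factor that activates G2 and mitosis genes, had 69.9, 65.2, 69.0 and 81.7 CPM in the 4 day 21 libraries, 17.7, 13.6, 25.5, 17.9 and 24.7 CPM in the 5 of day 30 and 31.5, 26, 18.8, 28.8 and 20.8 CPM in the 5 of day 45. MYBL2, which encodes B-MYB, had 48.6, 47.0, 47.6 and 55.1 CPM in the 4 day 21 libraries, 12.7, 8.32, 21.3, 16.5 and 21.5 CPM in the 5 of day 30 and 29.1, 19.3, 14.9, 18.9 and 15.8 CPM in the 5 of day 45. In both, every library of day 30 and day 45 lies below every library of day 21, and days 30 and 45 overlap. FOXM1 fell by 1.5 ± 0.17 (SE; adjusted p = 1.04e-06) to day 45 and MYBL2 by 1.34 ± 0.23 (SE; adjusted p = 8.02e-05). Without day 30 replicates 3, 4 and 5 both were called higher at day 45 than at day 30, FOXM1 by 0.67 ± 0.19 and MYBL2 by 0.88 ± 0.25 (SE; edgeR adjusted p = 0.0127 and 0.014).

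All 3 checkpoint kinase genes fell from day 21 and all 3 rose after day 30, but only BUB1 was also called without day 30 replicates 3, 4 and 5. BUB1, which marks centromeres and recruits the checkpoint proteins, had 23.9, 23.4, 27.4 and 29.5 CPM in the 4 day 21 libraries, 7, 5.56, 5.42, 6.89 and 7.84 CPM in the 5 of day 30 and 11.3, 9.31, 8.63, 11.4 and 8.04 CPM in the 5 of day 45. The day 45 libraries lie between the other days without overlap. Its later change was 0.57 ± 0.13 (SE; adjusted p = 0.00175). BUB1B encodes BubR1, a part of the complex that holds back the APC/C. It had 32.8, 31.3, 40.3 and 42.6 CPM in the 4 day 21 libraries, 8.04, 6.97, 7.69, 7.19 and 9.73 CPM in the 5 of day 30 and 12.6, 11.1, 7.64, 12.8 and 7.99 CPM in the 5 of day 45. Here days 30 and 45 overlap, since day 45 replicates 3 and 5 lie within day 30. Its rise of 0.39 ± 0.16 (SE; adjusted p = 0.042) was no longer called without any 1 of day 30 replicates 1 to 4 or day 45 replicates 1, 2 and 4 (adjusted p from 0.057 to 0.117). TTK, the kinase MPS1 that starts the checkpoint, rose by 0.58 ± 0.23 (SE; adjusted p = 0.0408), and this call ended without any 1 of day 30 replicates 2 to 4 or of the day 45 libraries (adjusted p from 0.053 to 0.103). The later changes of BUB1, BUB1B and TTK without those 3 libraries were 0.61 ± 0.17, 0.46 ± 0.22 and 0.35 ± 0.27 (SE; edgeR adjusted p = 0.00961, 0.109 and 0.318). The lowest level of TTK was 1.14 CPM, in day 30 replicate 4.

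The 5 genes of Aurora and Polo kinases and survivin fell to both later days. With all libraries only PLK4 was called higher after day 30. AURKA, AURKB and BIRC5 were called higher as well without day 30 replicates 3, 4 and 5. AURKB, the kinase of the chromosomal passenger complex, had 22.1, 19.4, 20.2 and 22.8 CPM in the 4 day 21 libraries, 4.29, 5.34, 10.1, 8.68 and 10.3 CPM in the 5 of day 30 and 9.34, 8.26, 6.24, 8.84 and 6.18 CPM in the 5 of day 45. BIRC5 encodes survivin, which brings that kinase to the centromere. It had 39.6, 40.9, 44.1 and 53.3 CPM in the 4 day 21 libraries, 11.3, 8.60, 18.2, 17.1 and 23.7 CPM in the 5 of day 30 and 18.1, 12.8, 12.6, 14.4 and 11.7 CPM in the 5 of day 45. In AURKB and BIRC5 day 30 replicates 3, 4 and 5 lie above replicates 1 and 2, and the day 45 libraries fall inside that spread. Their later changes were 0.00 ± 0.21 (SE; adjusted p = 0.989) and -0.19 ± 0.21 (SE; adjusted p = 0.468). PLK1, the Polo kinase of mitotic entry and spindle assembly, had 33.1, 29.8, 32.2 and 38.9 CPM in the 4 day 21 libraries, 10.4, 6.41, 14.9, 11.6 and 17.7 CPM in the 5 of day 30 and 11.6, 10.4, 9.70, 10.9 and 9.31 CPM in the 5 of day 45. Day 30 spans the whole day 45 range, and the change between them was -0.24 ± 0.19 (SE; adjusted p = 0.285). Without day 30 replicate 2 PLK1 was called lower at day 45 (-0.40, edgeR adjusted p = 0.0226). PLK4, which starts centriole duplication, rose from a mean of 2.44 CPM at day 30 to 4.52 CPM at day 45 (SD 0.572 and 0.523, n = 5 each), with an adjusted p of 0.000385. AURKA, the spindle pole kinase, had a later change of 0.34 ± 0.21 (SE; adjusted p = 0.169). Without the 3 libraries the values were 0.79 ± 0.24 for AURKA, 0.69 ± 0.19 for AURKB and 0.47 ± 0.18 for BIRC5 (SE; edgeR adjusted p = 0.0162, 0.00835 and 0.0487).

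Centromere and kinetochore genes hold some of the deepest falls: CENPA and CENPF fell by more than 4-fold from day 21 to day 45. All 8 members fell to both days, and CENPE, CENPF and CENPI rose after day 30 with all libraries. CENPA, the histone H3 variant of centromeres, had 9, 7.12, 9.21 and 9.46 CPM in the 4 day 21 libraries, 1.91, 1.41, 3.15, 3.32 and 3 CPM in the 5 of day 30 and 2.55, 1.65, 1.32, 2.6 and 1.52 CPM in the 5 of day 45. Days 30 and 45 overlap, and the 3 lowest day 45 libraries lie within or under the 2 lowest of day 30. The fall to day 45 was 2.17 ± 0.24 (SE; adjusted p = 5.65e-07), and the later change -0.41 ± 0.24 (SE; adjusted p = 0.153). Without day 30 replicate 2 that later change was called (-0.56, edgeR adjusted p = 0.0407). CENPF (ENSG00000117724; chromosome 1, 214603195 to 214664588, plus strand), a large protein of the outer kinetochore, had 120.0, 119, 149 and 154 CPM in the 4 day 21 libraries, 24.1, 16.9, 20.4, 18 and 24.5 CPM in the 5 of day 30 and 30.3, 33.6, 28.0, 35.8 and 26.5 CPM in the 5 of day 45. All day 45 libraries lie above the day 30 libraries and far below day 21. CENPF rose by 0.57 ± 0.12 (SE; adjusted p = 0.000988) on counts but not on log2(TPM + 1), where the change was -0.47 ± 0.19 (SE; limma adjusted p = 0.0536). The deposited effective length of CENPF was 5517 to 7903 bases at day 21 and 5187 to 9519 at day 45. At day 30 it was 4803 bases in replicate 1, 3244 in replicate 2 and 2370, 2464 and 2678 in replicates 3, 4 and 5.

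CENPI, a subunit of the inner kinetochore, had 3.95, 4.74, 6.26 and 6.49 CPM in the 4 day 21 libraries, 1.07, 0.899, 0.926, 0.595 and 1.69 CPM in the 5 of day 30 and 3.41, 2.29, 1.84, 2.76 and 2.35 CPM in the 5 of day 45. Each day 45 library exceeds each day 30 library. Its rise of 1.26 ± 0.25 (SE; adjusted p = 0.000494) is among the largest of the 49. NDC80, which gives its name to the complex that grips microtubules, had 17.6, 18.3, 24.8 and 22.6 CPM in the 4 day 21 libraries, 4.36, 4.44, 6.81, 5.70 and 6.54 CPM in the 5 of day 30 and 6.59, 6.42, 5.95, 8.02 and 5.23 CPM in the 5 of day 45. Days 30 and 45 overlap, and the later change was 0.21 ± 0.16 (SE; adjusted p = 0.271). Per transcript length, NDC80 had 25.2 ± 4.83 TPM (SD, n = 4) at day 21, 4.67 ± 0.839 TPM (SD, n = 5) at day 30 and 5.96 ± 1.56 TPM (SD, n = 5) at day 45. The other 3 subunits of the complex, NUF2, SPC24 and SPC25, had day 21 means of 11.4, 14.7 and 9.6 TPM and day 45 means of 2.66, 4.84 and 2.48 TPM. On the count scale NUF2, SPC24 and SPC25 gave later changes of 0.06, 0.03 and 0.11, none called. NDC80 and SPC24 were called higher without day 30 replicates 3, 4 and 5, by 0.54 ± 0.19 and 0.57 ± 0.19 (SE; edgeR adjusted p = 0.031 and 0.0271). CENPE, the kinetochore motor, rose by 0.66 ± 0.18 (SE; adjusted p = 0.00406) but by 0.05 ± 0.15 (SE; adjusted p = 0.78) with the offset for length and GC content, and by 0.49 ± 0.24 (SE; adjusted p = 0.119) without the 3 libraries.

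All 8 kinesin genes fell to both later days, and KIF4A, KIF11, KIF14 and KIF23 rose after day 30 with all libraries. KIF18A (ENSG00000121621; chromosome 11, 28020620 to 28108308, minus strand), which dampens chromosome movement at the metaphase plate, had the largest fitted fall to day 45 on counts. It had 5.84, 6.89, 9.18 and 8.73 CPM in the 4 day 21 libraries, 1.76, 0.731, 1.71, 1.39 and 1.77 CPM in the 5 of day 30 and 1.57, 1.24, 1.47, 1.89 and 1.11 CPM in the 5 of day 45. The later days share 1 low range, under 2 CPM in all 10 libraries. It was at 19.2% of its day 21 mean on day 30 and at 19% on day 45, a fall of 2.39 ± 0.22 (SE; adjusted p = 7.67e-08). KIF20A, a motor of the central spindle, had 64.8, 65.3, 63.7 and 84.5 CPM in the 4 day 21 libraries, 16.6, 10.1, 24.4, 16.9 and 20.6 CPM in the 5 of day 30 and 22.7, 23.0, 16.6, 26.3 and 18 CPM in the 5 of day 45. Day 21 replicate 4 stands above the other 3, and days 30 and 45 overlap. KIF20A fell by 1.71 ± 0.19 (SE; adjusted p = 7.76e-07) to day 45. KIF23, the motor of the centralspindlin complex that sets the cleavage plane, had 30.9, 33.1, 36.2 and 43.4 CPM in the 4 day 21 libraries, 12.9, 10.4, 13.8, 13.9 and 15.6 CPM in the 5 of day 30 and 22.2, 18.8, 18, 23.9 and 18.6 CPM in the 5 of day 45. The 3 days are separate, and day 45 reached 56.5% of the day 21 mean. KIF23 rose by 0.60 ± 0.12 (SE; adjusted p = 0.00057) after day 30.

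KIF11, the motor that pushes spindle poles apart, rose by 0.53 ± 0.14 (SE; adjusted p = 0.00484), which became 0.37 ± 0.18 (SE; adjusted p = 0.113) without day 30 replicates 3, 4 and 5. KIF4A, a chromosome-bound motor, rose by 0.59 ± 0.15 (SE; adjusted p = 0.00288), and KIF14, a motor of cytokinesis, by 0.95 ± 0.28 (SE; adjusted p = 0.00789). Without the same 3 libraries KIF14 was not called, at 0.46 ± 0.26 (SE; adjusted p = 0.169). KIF2C, which shortens microtubules at kinetochores, and KIF15, which backs up KIF11, had later changes of 0.23 and 0.36, not called. Without the 3 libraries KIF2C and KIF20A were called higher, by 0.65 ± 0.20 and 0.65 ± 0.21 (SE; edgeR adjusted p = 0.0167 and 0.0259).

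The 5 spindle assembly genes fell to both later days, and TPX2, ASPM, NUSAP1 and DLGAP5 rose after day 30 with all libraries. TPX2, which nucleates spindle microtubules and activates Aurora A, had 82.0, 75.7, 84.5 and 100 CPM in the 4 day 21 libraries, 21.7, 15.1, 26.2, 21.2 and 27.0 CPM in the 5 of day 30 and 43.8, 35.6, 29.9, 38.9 and 29.6 CPM in the 5 of day 45. Every day 45 library exceeds every day 30 library, and TPX2 rose by 0.67 ± 0.15 (SE; adjusted p = 0.000919). NUSAP1, which bundles microtubules near chromosomes, had 43.5, 47.6, 55.4 and 59.7 CPM in the 4 day 21 libraries, 13.6, 10.6, 13.9, 15.7 and 13.5 CPM in the 5 of day 30 and 23.1, 18.1, 13, 21.3 and 16.6 CPM in the 5 of day 45. Day 45 replicate 3 lies within day 30 and the other 4 lie above it. Its later change was 0.45 ± 0.15 (SE; adjusted p = 0.0142). ASPM, which focuses spindle poles, had 25.5, 36.5, 64.0 and 39.5 CPM in the 4 day 21 libraries, 9.57, 7.81, 4.68, 3.82 and 5.69 CPM in the 5 of day 30 and 14.3, 10.9, 10.4, 13.1 and 11 CPM in the 5 of day 45. Day 21 runs from 25.5 to 64.0 CPM, and day 30 replicates 3, 4 and 5 lie below replicates 1 and 2. ASPM fell by 2.71 ± 0.26 (SE; adjusted p = 3.24e-07) to day 30, a fall that was 2.25 ± 0.33 (SE; adjusted p = 0.00021) without day 30 replicates 3, 4 and 5. Its later rise of 0.91 ± 0.25 (SE; adjusted p = 0.00533) became 0.44 ± 0.31 (SE; adjusted p = 0.28) without them. DLGAP5, which stabilises kinetochore fibres, rose by 0.57 ± 0.18 (SE; adjusted p = 0.0142), or by 0.34 ± 0.24 (SE; adjusted p = 0.285) without the same libraries. HMMR, a spindle protein also known as a hyaluronan receptor, had 0.25 ± 0.20 (SE; adjusted p = 0.289), and 0.47 ± 0.17 (SE; limma adjusted p = 0.0352) on log2(TPM + 1).

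All 3 genes of the midzone and cytokinesis fell to both later days and rose after day 30, with the largest group median in that later interval (1.23). At day 45 they stood at 52.7% to 62.2% of day 21. ANLN (ENSG00000011426; chromosome 7, 36389806 to 36453791, plus strand) encodes anillin, the scaffold of the contractile ring. It had 53.1, 53.9, 70.0 and 73.4 CPM in the 4 day 21 libraries, 15.8, 13.4, 13.6, 13.4 and 18.3 CPM in the 5 of day 30 and 43.1, 37.0, 36.0, 45.4 and 33.2 CPM in the 5 of day 45. The day 30 libraries lie within 13.4 to 18.3 CPM and the lowest day 45 library is at 33.2. ANLN fell by 2.07 ± 0.13 (SE; adjusted p = 3.46e-09) to day 30 and rose by 1.38 ± 0.13 (SE; adjusted p = 2.3e-07) after it. PRC1, which crosslinks midzone microtubules, had 70.4, 68.4, 74.1 and 84.7 CPM in the 4 day 21 libraries, 21.7, 17.8, 28.9, 23.4 and 33.2 CPM in the 5 of day 30 and 44.7, 37.9, 34.2, 44.7 and 34.4 CPM in the 5 of day 45. Days 30 and 45 approach each other, at 33.2 and 34.2 CPM, without overlap. PRC1 rose by 0.65 ± 0.14 (SE; adjusted p = 0.00103). ECT2, the exchange factor that activates RhoA for cleavage, rose from a mean of 4.45 CPM at day 30 to 10.5 CPM at day 45 (SD 0.764 and 0.680, n = 5 each), with an adjusted p of 3.17e-06. ANLN, ECT2 and PRC1 were called higher at day 45 in each of the 4 fits of the later interval compared after the role groups. With day 45 replicate 1 placed at day 30, ANLN and ECT2 kept this call and PRC1 lost it (0.42, edgeR adjusted p = 0.104).

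**Figure D3:**
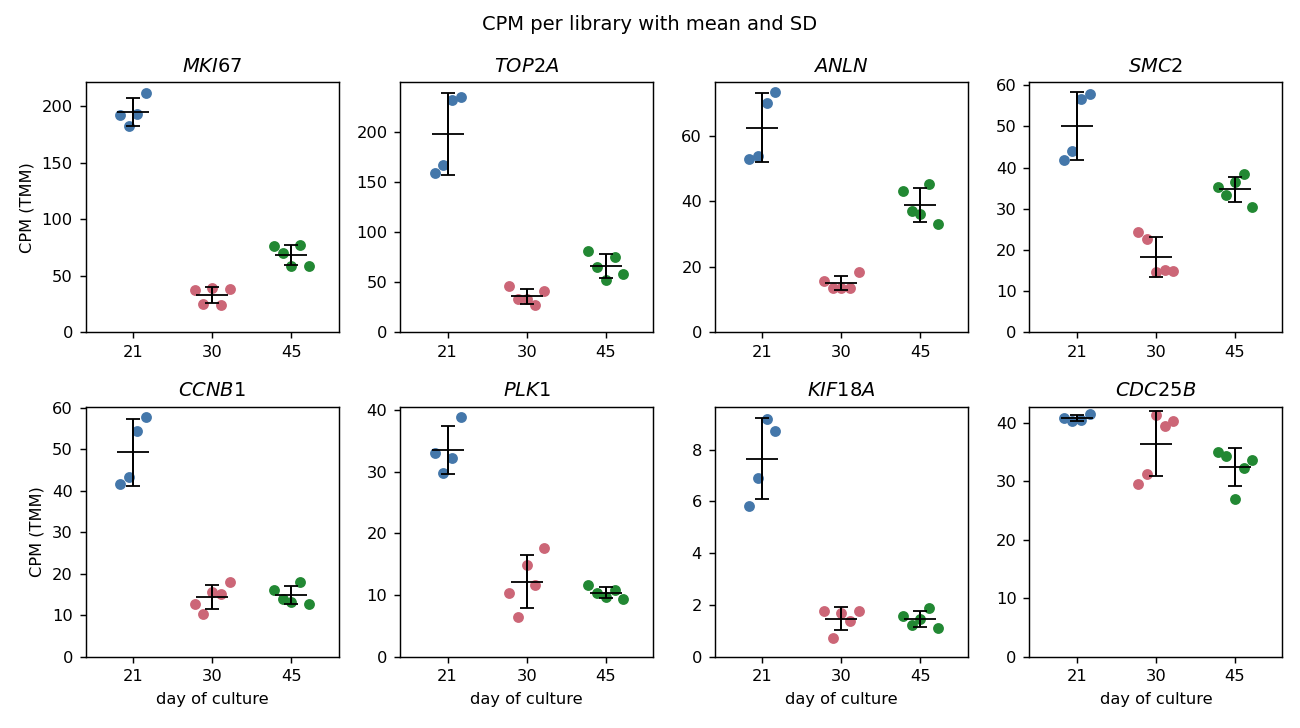
CPM of 8 of the genes in each library (points) by day of culture, with the mean and SD of each day. MKI67, TOP2A, ANLN and SMC2 separate all 3 days, CCNB1, PLK1 and KIF18A overlap at days 30 and 45, and the axis of each panel starts at 0, so that the small range of CDC25B can be seen.

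The APC/C activator, its E2 enzyme and securin fell to both later days and none of these 3 genes passed the test after day 30 with all libraries and no offset. UBE2C, the enzyme that loads ubiquitin for the APC/C, had 33.0, 32.2, 28.7 and 38.1 CPM in the 4 day 21 libraries, 7.88, 6.52, 15.9, 11.8 and 15 CPM in the 5 of day 30 and 15.7, 11.9, 10.1, 12.9 and 12 CPM in the 5 of day 45. Day 30 spans from 6.52 CPM in replicate 2 to 15.9 in replicate 3, which covers the day 45 libraries. Its later change was 0.13 ± 0.20 (SE; adjusted p = 0.59). PTTG1 encodes securin, the inhibitor of separase. It had 19.6, 21.9, 22.1 and 28.9 CPM in the 4 day 21 libraries, 9.61, 7.02, 13.5, 15.8 and 14.5 CPM in the 5 of day 30 and 12.2, 10.3, 12.3, 14.4 and 9.03 CPM in the 5 of day 45. It kept 50.4% of its day 21 mean on day 45, more than most members, with days 30 and 45 overlapping. PTTG1 has near-identical copies elsewhere in the genome, so its counts are less certain than those of other members. PTTG1 fell by 0.99 ± 0.19 (SE; adjusted p = 0.000341), and its later change was -0.06 ± 0.19 (SE; adjusted p = 0.815). CDC20, which activates the APC/C at anaphase, had 0.25 ± 0.20 (SE; adjusted p = 0.294) for the same interval. Without day 30 replicates 3, 4 and 5 the later changes of UBE2C and CDC20 were 0.78 ± 0.17 and 0.83 ± 0.19 (SE; edgeR adjusted p = 0.00192 and 0.00326). All 3 genes were called higher with the offset for length and GC content. There the later changes of UBE2C, CDC20 and PTTG1 were 0.62, 0.58 and 0.45 (edgeR adjusted p = 0.00654, 0.0111 and 0.0222).

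All 4 condensin genes fell to both later days. SMC2 and SMC4, the ATPase core of both condensins, were called higher after day 30 with all libraries, and NCAPG and NCAPH of condensin I were not. The genes called without day 30 replicates 3, 4 and 5 were SMC2 and NCAPH. SMC2 (ENSG00000136824; chromosome 9, 104094260 to 104141417, plus strand) had 41.9, 44.1, 56.7 and 57.9 CPM in the 4 day 21 libraries, 24.3, 22.6, 14.5, 15 and 14.8 CPM in the 5 of day 30 and 35.2, 33.3, 36.5, 38.4 and 30.4 CPM in the 5 of day 45. The 3 days are separate, and day 30 replicates 1 and 2 lie above replicates 3, 4 and 5. It was at 69.3% of its day 21 mean on day 45, a fall of 0.53 ± 0.16 (SE; adjusted p = 0.00755). SMC2 rose by 0.93 ± 0.15 (SE; adjusted p = 7.38e-05) after day 30. SMC4 had 45.3, 56.3, 89.0 and 70.7 CPM in the 4 day 21 libraries, 26.4, 26.1, 17.9, 16.0 and 22.1 CPM in the 5 of day 30 and 35.7, 28.7, 28.1, 40.1 and 31.0 CPM in the 5 of day 45. Day 45 lies above day 30 by a narrow gap, with 28.1 against 26.4 CPM. The rise of 0.59 ± 0.18 (SE; adjusted p = 0.00935) became 0.30 ± 0.22 (SE; adjusted p = 0.302) without day 30 replicates 3, 4 and 5. NCAPG and NCAPH fell by 1.5 ± 0.20 (SE; adjusted p = 6.25e-06) and 1.87 ± 0.18 (SE; adjusted p = 1.05e-07) to day 45. The later change of NCAPH was 0.38 ± 0.18 (SE; adjusted p = 0.0776) with all libraries, 0.73 ± 0.20 (SE; adjusted p = 0.00827) without the 3 libraries and 0.52 ± 0.17 (SE; adjusted p = 0.0159) with the offset for length and GC content. Differences between these subunits were not tested.

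After day 30 some members passed the test and others did not. Differences between members were not tested. In the comparison of day 45 with day 30, 23 of 49 members rose, where 27.6% of all genes rose, and none fell, where 28.7% of all genes did. At an unadjusted p below 0.05 edgeR had 24 higher and 0 lower. DESeq2 and limma on both TPM scales called 0 lower, and limma voom with sample weights called 1. The median log2 fold change was 0.38, against -0.04 over all genes, with 43 positive and 6 negative values. The negative ones were CDC25B, PLK1, BIRC5, CENPA, KIF18A and PTTG1. In 16 members every day 45 library lay above every day 30 library, as in 19.8% of all genes. With day 45 replicate 1 placed at day 30, as its treatment label reads, 6 rose: MKI67, PLK4, CENPF, ECT2, ANLN and SMC2. The share of all genes called in that fit is not given here, so this drop cannot be set beside that of all genes. The summed rise from 544 ± 83.6 to 775 ± 109 CPM (SD, n = 5 each) leaves the later day well under the 2036 CPM of day 21.

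Which members rose moved with transcript length and GC content. Over the 49 genes the Spearman correlation of this later change with effective length was 0.62, and with GC content -0.49, given as a description because the genes share the same libraries. Without day 30 replicates 3, 4 and 5 the correlation with length was -0.03 and with GC content 0.27. Within day 30 the members' deviations from the day mean followed length at 0.72 and 0.56 in replicates 1 and 2 and at -0.41, -0.63 and -0.50 in replicates 3, 4 and 5. Over all genes the same 5 values were 0.48, 0.37, -0.21, -0.48 and -0.31. With GC content the members' deviations at day 30 correlated at -0.70, -0.68, 0.79, 0.44 and 0.41 in replicates 1 to 5. Over all genes these were -0.30, -0.42, 0.50, 0.14 and 0.20. Members ranged from 500 bases (PTTG1) to 11233 (MKI67), with a median of 2451 against 1997 over genes tested, and their median GC content was 42.5% against 48.7%. At day 21 the correlation of the members' deviations with GC content was 0.86, 0.50, -0.89 and 0.08 in replicates 1 to 4.

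Without day 30 replicates 3, 4 and 5, day 30 rests on replicates 1 and 2 alone. These held 539 and 429 CPM summed over the 49 genes, against 588, 512 and 652 CPM in those left out. In this fit all 49 members were higher at day 45 than at day 30 in fitted value, from 0.08 to 1.40 with a median of 0.57, and 29 were called (19.6% of all genes were). Of those 29, 14 were also called with all libraries and 15 were not. The 9 called with all libraries alone were CCNA2, BUB1B, TTK, CENPE, KIF11, KIF14, ASPM, DLGAP5 and SMC4. With an offset for length and GC content 26 were called (35.3% of all genes), and on log2(TPM + 1) 22 (27.1% of all genes). The offset added calls for CDC25C, FOXM1, AURKB, CDC20, UBE2C, PTTG1 and NCAPH to those with all libraries and no offset. It ended the calls of CCNA2, CENPE, CENPF and KIF11. MKI67, TOP2A, BUB1, PLK4, CENPI, KIF4A, KIF23, TPX2, NUSAP1, PRC1, ECT2, ANLN and SMC2, 13 genes, were called in all 4 of these fits, as were 16.2% of all genes. Of these 13, only MKI67, PLK4, ECT2, ANLN and SMC2 were also called with day 45 replicate 1 placed at day 30. For 35 members all day 45 libraries lay above day 30 replicates 1 and 2, as for 27.4% of all genes. CCNB1, CDC25B, PLK1, CENPA, NUF2, SPC25, KIF15, KIF18A and NCAPG were called higher in none of the 4.

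**Figure D4:**
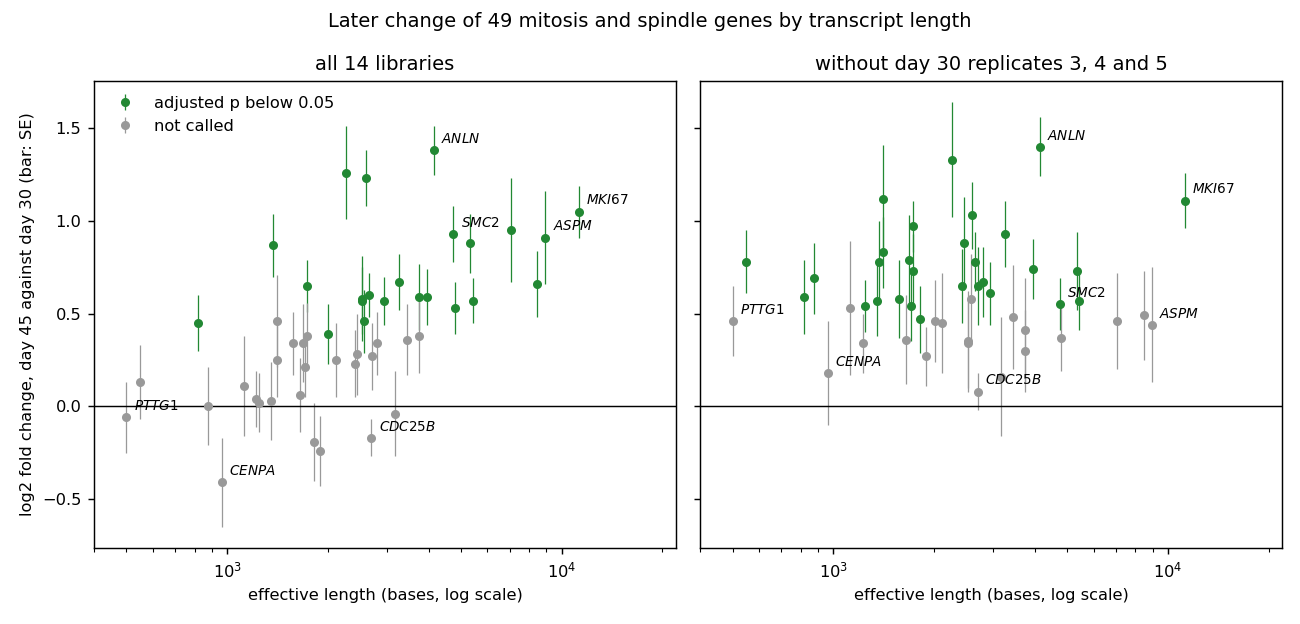
Log2 fold change from day 30 to day 45 of the 49 genes (bar: 1 SE) against effective length on a log axis, with all libraries (left) and without day 30 replicates 3, 4 and 5 (right); green points had an adjusted p below 0.05. With all libraries longer transcripts lie higher (Spearman 0.62) and the called genes lie mostly toward the longer end, while without the 3 libraries all 49 points lie above 0 with no trend in length (-0.03).

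The later change minus the earlier change was tested per gene in the same model. It was positive and called in 48 of 49 members, where 25.3% of all genes were called in that direction, with a median of 2.24 against -0.08 over all genes. On log2(TPM + 1) that last value was 0.37, and limma called 41.0% of all genes higher and 12.9% lower, against 25.3% and 27.5% on counts. On counts without an offset the largest values were those of MKI67, 3.62 ± 0.26 (SE; adjusted p = 3.45e-08), ASPM, 3.62 ± 0.46 (SE; adjusted p = 1.16e-05), and CENPI, 3.60 ± 0.46 (SE; adjusted p = 9.94e-06). With the offset for length and GC content these 3 changed by -1.86, -1.94 and -2.17 to day 30. Their later changes there were 0.58, 0.38 and 1.19, so their order depends on the fit. In the fit without an offset the step from day 21 to day 30 and the step from day 30 to day 45 differed for 48 genes, also where the second was not called by itself. CDC25B was the exception, at 0.00 ± 0.18 (SE; adjusted p = 0.99), though limma on log2(TPM + 1) called it (0.52, adjusted p = 0.00581). PTTG1 had the smallest called value, 0.88 ± 0.34 (SE; adjusted p = 0.0373), and lost its call without day 21 replicate 4 (0.0698), day 30 replicate 1 (0.0936) or 2 (0.0957), or day 45 replicate 1 (0.0535), 3 (0.0531) or 4 (0.0619). Day 30 enters this contrast in both intervals, so libraries that stand apart there weigh on it more. The 48 genes called are those called lower from day 21 to day 30. A fall to day 30 with no change after it also gives a positive value, so the contrast does not by itself show a later rise.

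Other genes of the mitotic machinery, taken from lists of known complexes, did not all move with the members. From day 21 to day 45, 30.5% of all genes tested fell. Of 30 further kinetochore and checkpoint genes, 23 fell in this interval and 7 did not pass, with a median log2 fold change of -0.87. Among them KNL1, the scaffold that binds BUB1, fell by 1.80 ± 0.19 and ZWINT, its partner, by 1.69 ± 0.19 on the log2 scale (SE). Of 11 genes of cohesin and its regulators 5 fell and 6 did not pass. The largest falls were those of 2 regulators, separase, ESPL1 (-1.66 ± 0.15, SE), and sororin, CDCA5 (-1.56 ± 0.21, SE). From day 21 to day 30 all 11 of these genes fell, and 8 rose after it, where 27.1% of all genes fell and 27.6% rose in these intervals. The remaining condensin subunits NCAPD2 and NCAPG2 fell by 0.80 ± 0.10 and 0.57 ± 0.12 (SE) to day 45, and 3 of 4 rose after day 30. Of 10 regulators of mitotic entry 6 fell and 4 did not pass, with GTSE1 at -1.59 ± 0.15 and PKMYT1, the inhibitory kinase of CDK1, at -1 ± 0.31 (SE).

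Of 15 genes of the APC/C, 5 rose, 5 fell and 5 did not pass from day 21 to day 45, with a median of -0.07. These are the core subunits of the APC/C, which CDC20 and UBE2C serve, and its activator FZR1. ANAPC11, its catalytic RING subunit, rose by 0.76 ± 0.14 (SE), with means of 20.1 ± 1.63 and 34 ± 2.80 CPM (SD, n = 4 and 5), and ANAPC15 went from 9.62 ± 1.18 to 5.64 ± 1.34 CPM (SD, n = 4 and 5; -0.77 ± 0.22, SE). Of 10 genes of the gamma-tubulin ring, which nucleates microtubules all through the cell cycle, 4 rose and 1 fell. MZT1, a small subunit of the ring, rose by 0.86 ± 0.12 and MZT2B by 0.51 ± 0.16 (SE). Of 11 MuvB and pocket protein genes 6 fell and 2 rose, and LIN9 and E2F5 had -1.04 ± 0.20 and -0.87 ± 0.15 (SE). These counts stand beside 30.5% of all genes falling and 27.1% rising.

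DNA replication genes, which act before mitosis, also fell early and rose late. Of 27, 25 fell from day 21 to day 45, 26 fell to day 30, and 21 rose and 1 fell from day 30 to day 45, with medians of -0.90, -1.41 and 0.56. Of all genes tested, 30.5% fell to day 45 and 27.1% fell to day 30. From day 30 to day 45, 27.6% of all genes rose and 28.7% fell. MCM7, part of the replicative helicase, had means of 98.3 ± 4.05, 36.0 ± 8.30 and 43.8 ± 7.23 CPM on the 3 days (SD, n = 4, 5 and 5). RFC3, part of the clamp loader, had 13.6 ± 2.53, 3.45 ± 0.521 and 5.92 ± 0.756 CPM, in the same order. Among mitotic members 23 of 49 rose in the last interval and among replication genes 21 of 27. Whether these shares differ was not tested.

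**Figure D5:**
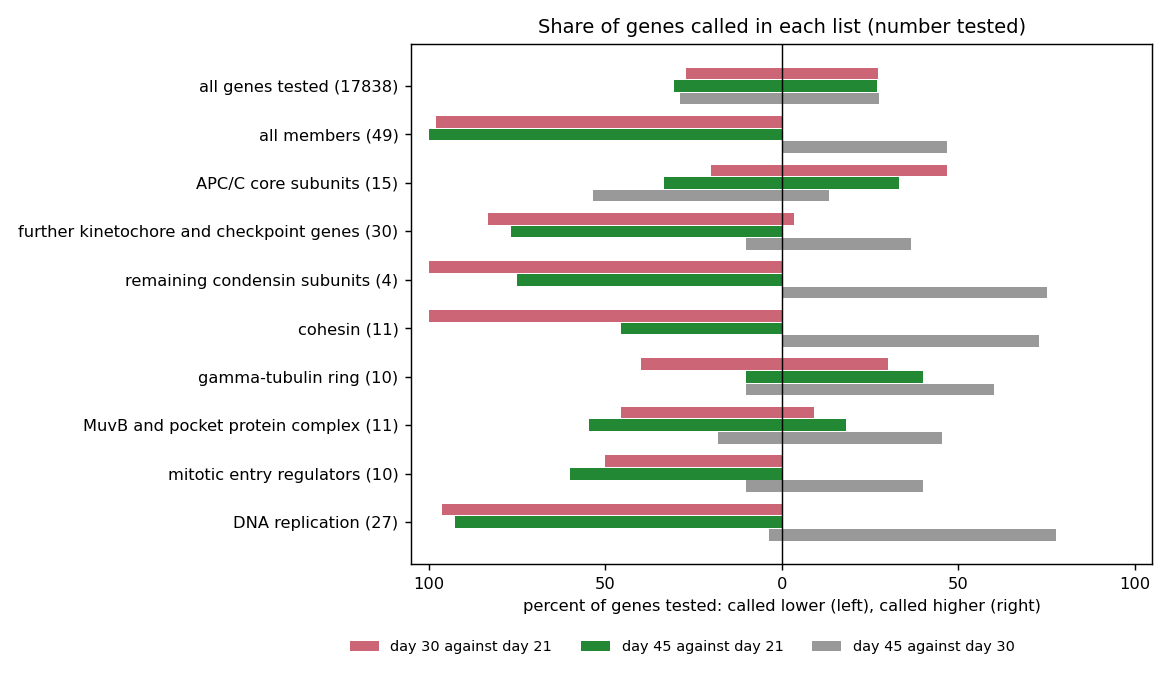
Percent of tested genes called lower (left of 0) and higher (right of 0) in each list and comparison, with the number tested in brackets and all genes tested at the top. The members and the DNA replication genes lie far to the left for both comparisons with day 21 and only to the right, or nearly so, for day 45 against day 30, while APC/C core and gamma-tubulin genes lie on both sides.

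Per transcript length, NUSAP1 and UBE2C had the highest means of the 49 at day 21, 125 ± 18.5 TPM (SD, n = 4) and 123 ± 6.54 TPM (SD, n = 4), which differ by less than the spread of NUSAP1. PTTG1 had 75.9, 91.0, 97 and 109 TPM and TOP2A a mean of 76.4 ± 17.8 TPM (SD, n = 4). At day 45 PTTG1 (28.4 to 43.5 TPM) and UBE2C (27.2 to 42.1 TPM) overlapped. CDC25B, at 30.3 to 33.9 TPM on day 21, was lower per length than TPX2 (47.6 to 60.4 TPM). On day 45 CDC25B had 16.4 to 19.5 TPM, TPX2 13.5 to 19.1 and ANLN 12 to 17.4, and the 3 ranges overlapped. Summed over all 49 genes the level was 1719 ± 202 TPM at day 21 (SD, n = 4), 384 ± 50 at day 30 and 497 ± 71.5 at day 45 (SD, n = 5 each). Within condensin the day 21 means ran from 16.4 ± 5.82 TPM (SD, n = 4) for NCAPG to 71.8 ± 3.12 TPM for NCAPD2 (SD, n = 4), and on day 45 from 3.76 ± 0.861 to 34.3 ± 2.4 TPM (SD, n = 5) for the same genes.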

How the data were processed

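RNA of whole pellets in 14 libraries was analysed from the authors' gene tables. The submitters' processing notes name STAR 2.4.2a, an aligner, RSEM 1.2.25, a counting tool, and GRCh38. Which annotation release was used with them is not given here. Per the labels' protocols, libraries were made with a TruSeq v2 kit, which does not mark strand, so reads of overlapping genes on opposite strands cannot be told apart. The culture protocol is given in the labels by reference only.

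Per the file headers, the authors deposited an expected count, a TPM value and an effective length per gene. Expected counts were rounded and fitted in edgeR 4.0.16 (R 4.3.3) after filterByExpr and TMM, with 1 mean per day over all 14 libraries, robust dispersions and the quasi-likelihood F-test. P-values were adjusted by Benjamini-Hochberg over the 17838 genes tested, in each comparison apart. CPM was computed from the deposited expected counts, and fold changes are on the log2 scale of the fit, not values of the authors. The SE is the log2 fold change divided by the square root of F. A comparison with 4 and 5 libraries per day limits the precision, and the depth was 18183776 to 33660704 expected counts per library. The script was tested on simulated counts.

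Coordinates come from GENCODE 29 (GRCh38), matched by Ensembl identifier. GC content came from the same annotation and was known for 98.7% of genes tested. Start regions are those of RefSeq (GRCh38.p14). The library titled day 45 replicate 1 was grouped by its title.

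The members, role groups and other lists were chosen with earlier results of these data known. Values in every library are given for 28 members: MKI67, the 2 of each role group with the highest mean TPM, the 3 largest and 3 smallest changes from day 21 to day 45, members whose sign goes against most others, and the 3 largest values of the later minus the earlier change. PLK4, ECT2, CCNA2 and other members are given more briefly.

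Alternatives were DESeq2 1.42.0, its size factors in edgeR, limma 3.58.1 on log2 of the authors' TPM plus 1 or 0.1, limma voom with sample weights, other filters on low counts (none, or 1 CPM in 4 libraries), dispersions without robust fitting, fits restricted to the days compared, a replicate block, leaving out each library, leaving out day 30 replicates 3 to 5, moving day 45 replicate 1 to day 30, and an offset per library by loess on effective length. The TPM values were not rescaled by TMM. The offset on length and GC content was added after the data were seen. Replicate numbers were not taken to pair libraries.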

Additional observations from a re-analysis of the deposited data

Results flagged for a closer look

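KIF20A, the motor of the central spindle, had 84.5 CPM in day 21 replicate 4, apart from the other 3 day 21 libraries at 63.7 to 65.3 CPM. The gap was large for the spread of that day. It was the only case among 84 groups looked at (28 genes on 3 days), and chance alone marks about 1 in 20 such groups. The same library had the highest summed level of the 49 genes, 2319 CPM against 1785 to 2215 CPM.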

How the results depend on the processing

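The falls from day 21 held throughout: 47 to 49 members were lower at day 45 and 48 or 49 at day 30 under all alternatives. Calls lost at day 45 were those of CDC25B with either offset, and of ANLN (-0.72, edgeR adjusted p = 0.0678) and SMC2 (-0.53, 0.0788) with day 45 replicate 1 placed at day 30. From day 30 to day 45 the count of 23 higher became 6 with that placement, for which the share of all genes is not given here. It was 20 to 28 with each library left out in turn. Members called lower in that interval were 0 to 2 with each library left out, the 2 being CENPA and PLK1 without day 30 replicate 2, and 1 with limma voom and sample weights (CDC25B, -0.23, adjusted p = 0.0477). The cause was not tested. With a replicate block 49, 48 and 21 members were called in the 3 comparisons and 48 in the later minus the earlier change. BUB1B and TTK lost their later call there (adjusted p = 0.0763 and 0.0643). Deviations of same-numbered libraries of different days correlated at -0.25 to 0.12 in 13 pairs, 2 of them over 0.1, and not every library was most like its own number, so the numbers were not taken as pairs.

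Of the 49 members, 16 changed sign from day 30 to day 45 under some alternative. Without day 30 replicates 3, 4 and 5 the values were 0.08 for CDC25B, 0.27 for PLK1, 0.47 for BIRC5, 0.18 for CENPA, 0.16 for KIF18A and 0.46 for PTTG1. With the length and GC offset they were 0.01 for CDC25B, 0.00 for PLK1, 0.01 for BIRC5 and 0.45 for PTTG1, and 0.42 for PTTG1 with length alone. On log2(TPM + 1) and log2(TPM + 0.1) they were 0.07 and 0.08 for BIRC5, 0.05 and 0.12 for KIF18A, 0.08 and 0.08 for PTTG1, -0.47 and -0.53 for CENPF, -0.08 and -0.11 for KIF15, and -0.05 and -0.06 for SPC24. With limma voom they were -0.05 for CCNB1, -0.08 for CCNB2, -0.12 for AURKB, -0.03 for NUF2, -0.06 for SPC24 and -0.06 for SPC25. With day 45 replicate 1 placed at day 30 they were -0.02 for CCNB1, -0.01 for CCNB2, -0.08 for MYBL2, -0.12 for AURKB, -0.16 for NUF2, -0.08 for SPC24, -0.11 for SPC25, -0.03 for KIF15 and -0.05 for UBE2C. With the filter of 1 CPM and with only the days compared they were -0.02 and -0.01 for CCNB2, -0.03 and -0.03 for AURKB, and -0.01 and 0.00 for SPC24. With single libraries left out, the range was -0.05 to 0.16 for CCNB1, -0.10 to 0.14 for CCNB2, -0.16 to 0.15 for AURKB, -0.34 to 0.03 for BIRC5, -0.07 to 0.27 for NUF2, -0.11 to 0.22 for SPC24, -0.09 to 0.27 for SPC25, -0.19 to 0.05 for KIF18A, -0.01 to 0.28 for UBE2C and -0.20 to 0.05 for PTTG1. The later call was gained by CDK1, AURKA, NCAPG and NCAPH without day 30 replicate 5 (edgeR adjusted p = 0.0179, 0.0437, 0.0451 and 0.00795), by CDC25C without day 30 replicate 3 (0.049), by KIF15 without day 45 replicate 3 (0.0121), and by FOXM1 without day 30 replicate 3 or 5 or day 45 replicate 3 (0.0371, 0.042 and 0.0389).

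The later minus the earlier change of CDC25B, 0.00, was 0.52 on log2(TPM + 1), 0.53 on log2(TPM + 0.1), 0.51 without day 30 replicates 3, 4 and 5, 0.21 with the length and GC offset, 0.10 with no filter, 0.03 with a replicate block and -0.14 to 0.10 with single libraries left out. CENPA lost its call there with limma voom (adjusted p = 0.0779), and PTTG1 with limma voom (0.129) and with the placement at day 30 (0.0571). The lowest count of a member in a library was 12.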
